A study of Mus musculus with 2 samples.

Results

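Natural killer (NK) cell receptor genes were followed on lymphocytes of the mouse proximal small intestine, as 9 genes: Klrd1, Klrc1, Klre1, Klrk1, Klrb1c, Klrg1 and Cd160, which code for receptors, and Fcer1g and Hcst, which code for the signalling adaptors such receptors need. The 9 were found by symbol among the 32285 genes of each count table. The series concerns mice with altered M1 or M3 muscarinic receptor expression. The 2 libraries analysed here are both controls of genotype C57BL/6, with no treatment named: control 1, whose title calls it an M1 control, and control 2, which is named as an M3 control. Each is a 10x Genomics Chromium 3' library of polyA RNA from pooled villus-rich and crypt-rich suspensions, with a unique molecular identifier (UMI) per captured RNA molecule. There is thus 1 group of 2 libraries, and the comparisons are between lymphocyte subsets of the same libraries. Whether each library is from its own mouse is not stated in the labels. The p-values therefore measure only how unevenly subset ratios came out in the pair of libraries, which may be technical variation.

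NK receptors let lymphocytes weigh inhibitory against activating signals from the cells they touch. Most bind MHC class I or related surface proteins. CD94, the product of Klrd1, pairs with an NKG2 chain: with NKG2A, from Klrc1, the pair inhibits, and with NKG2C, from Klrc2, it activates, and both pairs bind Qa-1, the product of H2-T23. Activating receptors mostly lack a signalling tail of their own and borrow one from an adaptor: NKG2D (Klrk1) from DAP10 (Hcst) and in mice also DAP12 (Tyrobp), and NK1.1 (Klrb1c) from the Fc receptor gamma chain (Fcer1g). In the gut epithelium, such genes are known not only from NK cells but also from intraepithelial T cells, above all gamma-delta T cells and CD8αα T cells.

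Of the members, 6 lie on chromosome 6 (GRCm38, positions from GENCODE M21), inside 7408378 bases from Klrg1 at chr6:122270596-122282882 to Klrc1 at chr6:129666015-129678973. Klre1 (chr6:129577905-129585827, plus strand) and Klrd1 (chr6:129591782-129598775, plus strand) are neighbours there, followed by Klrk1 (chr6:129610323-129623864, minus strand). Klrb1c (chr6:128778485-128789215, minus strand) overlaps the annotated gene Gm44511 on the same strand, so its reads may be shared with that gene. The other members are Cd160 (chr3:96798763-96829351, minus strand, overlapped by Pdzk1 on the opposite strand), Fcer1g (chr1:171229572-171234365, minus strand) and Hcst (chr7:30417712-30419854, minus strand). All 9 are annotated as protein-coding.

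Promoter windows of 300 bases, from 250 before to 50 after a gene's start, were found for 7 of the 9 members in RefSeq's table for GRCm38.p6. Shown are those of Klre1 and Fcer1g, which were both higher in Trdc+ than in Cd8b1+ lymphocytes, and of Cd160 and Hcst, which did not pass that test. Capitals mark the Runx core motif TGTGGT and the T-box core motif TCACAC, searched on both strands (ACCACA and GTGTGA on the other). The windows are chr6:129577963-129578262 on the plus strand for Klre1, and on the minus strand chr1:171234300-171234599 for Fcer1g, chr3:96829302-96829601 for Cd160 and chr7:30419805-30420104 for Hcst.
Klre1: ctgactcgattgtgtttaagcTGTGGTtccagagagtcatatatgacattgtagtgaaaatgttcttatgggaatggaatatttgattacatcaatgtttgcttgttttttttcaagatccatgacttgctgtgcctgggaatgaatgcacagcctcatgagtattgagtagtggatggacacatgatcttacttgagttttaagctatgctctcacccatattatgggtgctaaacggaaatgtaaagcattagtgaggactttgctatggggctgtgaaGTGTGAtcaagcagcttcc
Fcer1g: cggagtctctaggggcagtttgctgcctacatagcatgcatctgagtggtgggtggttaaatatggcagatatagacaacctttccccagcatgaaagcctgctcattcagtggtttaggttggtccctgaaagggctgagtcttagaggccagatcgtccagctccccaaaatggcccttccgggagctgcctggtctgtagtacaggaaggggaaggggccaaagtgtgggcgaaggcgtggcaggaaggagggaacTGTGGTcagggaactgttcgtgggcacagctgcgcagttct
Cd160: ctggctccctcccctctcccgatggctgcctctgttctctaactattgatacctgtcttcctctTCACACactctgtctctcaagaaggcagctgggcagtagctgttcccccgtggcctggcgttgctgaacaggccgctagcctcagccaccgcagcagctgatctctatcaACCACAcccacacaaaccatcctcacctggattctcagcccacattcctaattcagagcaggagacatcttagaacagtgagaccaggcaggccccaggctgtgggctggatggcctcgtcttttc
Hcst: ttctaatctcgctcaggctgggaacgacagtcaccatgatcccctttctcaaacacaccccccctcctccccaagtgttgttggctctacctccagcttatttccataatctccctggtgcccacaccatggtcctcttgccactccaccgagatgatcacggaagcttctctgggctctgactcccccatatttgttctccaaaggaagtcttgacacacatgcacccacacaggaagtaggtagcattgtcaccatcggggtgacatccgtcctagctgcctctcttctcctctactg
Klre1 and Cd160 hold 1 match of each motif in these windows, Fcer1g holds 1 Runx match and Hcst holds neither. Klre1 and Cd160 each have a further window, not shown. That of Klre1 (chr6:129578036-129578335) holds 0 Runx matches and 1 T-box match, and that of Cd160 (chr3:96814472-96814771) holds 1 of each. Of all 32851 windows in the table, 16.8% hold the Runx letters and 14.5% the T-box letters. A match is a description of the letters and not a binding site.

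The tables list 9342 barcodes and 54451793 UMIs for control 1 and 7109 barcodes and 36139325 UMIs for control 2. Of 7087 and 4720 barcodes kept, 3016 and 2048 had a UMI of Ptprc, the gene of the leukocyte antigen CD45, and of these 2584 (85.7%) and 1640 (80.1%) had more UMIs of a lymphoid list than of an epithelial, myeloid, B cell or mast cell list. These lymphocyte barcodes were split without overlap. Kit+ barcodes (615 in control 1, 306 in control 2) were taken first. Then came barcodes without a Cd3d, Cd3e or Cd3g UMI, called Cd3-negative (113 and 140). Of the rest, 688 and 531 were Trdc+, 160 and 132 Cd8b1+, 42 and 42 Cd4+, and 877 and 462 had none of these 3 genes. Another 89 and 27 barcodes had several of them and were left out. Trdc codes for the constant part of the T cell receptor delta chain, Cd8b1 for the CD8 beta chain and Kit for a growth factor receptor. The libraries share 17 cell barcode sequences, carried by 1 and 4 of the lymphocytes.

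The subsets were checked against further markers. T cell receptor gamma constant genes, Cd8a and Ncr1 were in neither the lists that picked out lymphocyte barcodes nor the subset rules. Trac, Trbc2, the Cd3 genes, Trdc and the mast cell list had entered that selection, so their values describe selected barcodes. Tcrg-C1, a T cell receptor gamma constant gene, had 900 and 789 CPM (UMIs of the gene per 1e6 UMIs summed) in Trdc+ barcodes of control 1 and control 2, against 71.0 and 166 CPM in Cd8b1+ barcodes and 87.2 and 116 CPM in Cd4+ barcodes. The other gamma constant genes differed less: Tcrg-C2 was at 464 and 402 CPM in Trdc+ barcodes, against 386 and 365 CPM in Cd8b1+ barcodes, and Tcrg-C4 at 456 and 489 CPM, against 307 and 406 CPM. Trac, the alpha chain constant gene, had a UMI in 62.5% and 47.8% of Trdc+ barcodes, against 78.1% and 66.7% of Cd8b1+ barcodes, and Trbc2, a beta chain constant gene, in 81.5% and 72.3%, against 92.5% and 81.8%. Trdc+ barcodes were therefore not free of alpha-beta receptor RNA. Cd8a had a UMI in 79.1% and 68.8% of the barcodes with none of the 3 genes. Kit+ barcodes were 97.4% and 96.4% Cd3-positive and 63.1% and 61.1% Trdc-positive, so the Kit+ subset, as selected, is mostly T cells. The mast cell list was at 5.29 and 5.62 CPM in them. Barcodes with no fewer mast cell than lymphoid UMIs had been left out beforehand. These values therefore do not describe Kit+ cells before that selection. Cd3-negative barcodes were shallow, with a median of 1316 and 1498 UMIs, against 5212 and 5765 in Trdc+ barcodes, and with a median of 6.74% and 10.2% mitochondrial UMIs, against 2.36% and 2.71%. They still held Trdc UMIs in 15.0% and 22.9% of barcodes, and Ncr1, the gene of the NK cell receptor NKp46, in 9.73% and 6.43%. More of these barcodes thus had a Trdc than an Ncr1 UMI, and the subset is called here by its rule and not NK cells.

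Free RNA sets a floor under every share. Epithelial barcodes without Ptprc or Cd3 UMIs (3238 and 2052, median 2439 and 2465 UMIs) should lack these genes and were measured in the same way. That rule also removes epithelial barcodes that took up free Ptprc or Cd3 RNA, so this background may be too low. Pairs with low shares above it are the least certain. After each barcode was thinned to 2000 UMIs, leaving out shallower ones, 34 of 54 pairs of member and subset lay above this background in both libraries, with intervals that did not overlap. Klrd1, Cd160 and Hcst did so in 6 of 6 subsets, Fcer1g and Klre1 in 5, Klrb1c in 4, Klrk1 in 2, and Klrc1 and Klrg1 in 0. Thinning kept 29 of 113 and 40 of 140 Cd3-negative barcodes, against 622 of 688 and 465 of 531 Trdc+ barcodes. Thinned shares of Cd3-negative barcodes thus describe the deeper ones only. The epithelial list itself was at 334 to 660 CPM in the lymphocyte subsets, with 10 of 10 genes detected in each, against 6394 and 7181 CPM in the epithelial barcodes. That sum is not read as a level of free RNA, since its genes went apart. Cdh1 was at 135 and 174 CPM in Trdc+ barcodes, against 128 and 273 CPM in epithelial ones. Epcam was at 163 and 112 CPM, against 1014 and 1082 CPM, and Krt8 at 88.2 and 58.0 CPM, against 1517 and 1655 CPM.

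**Figure D1:**
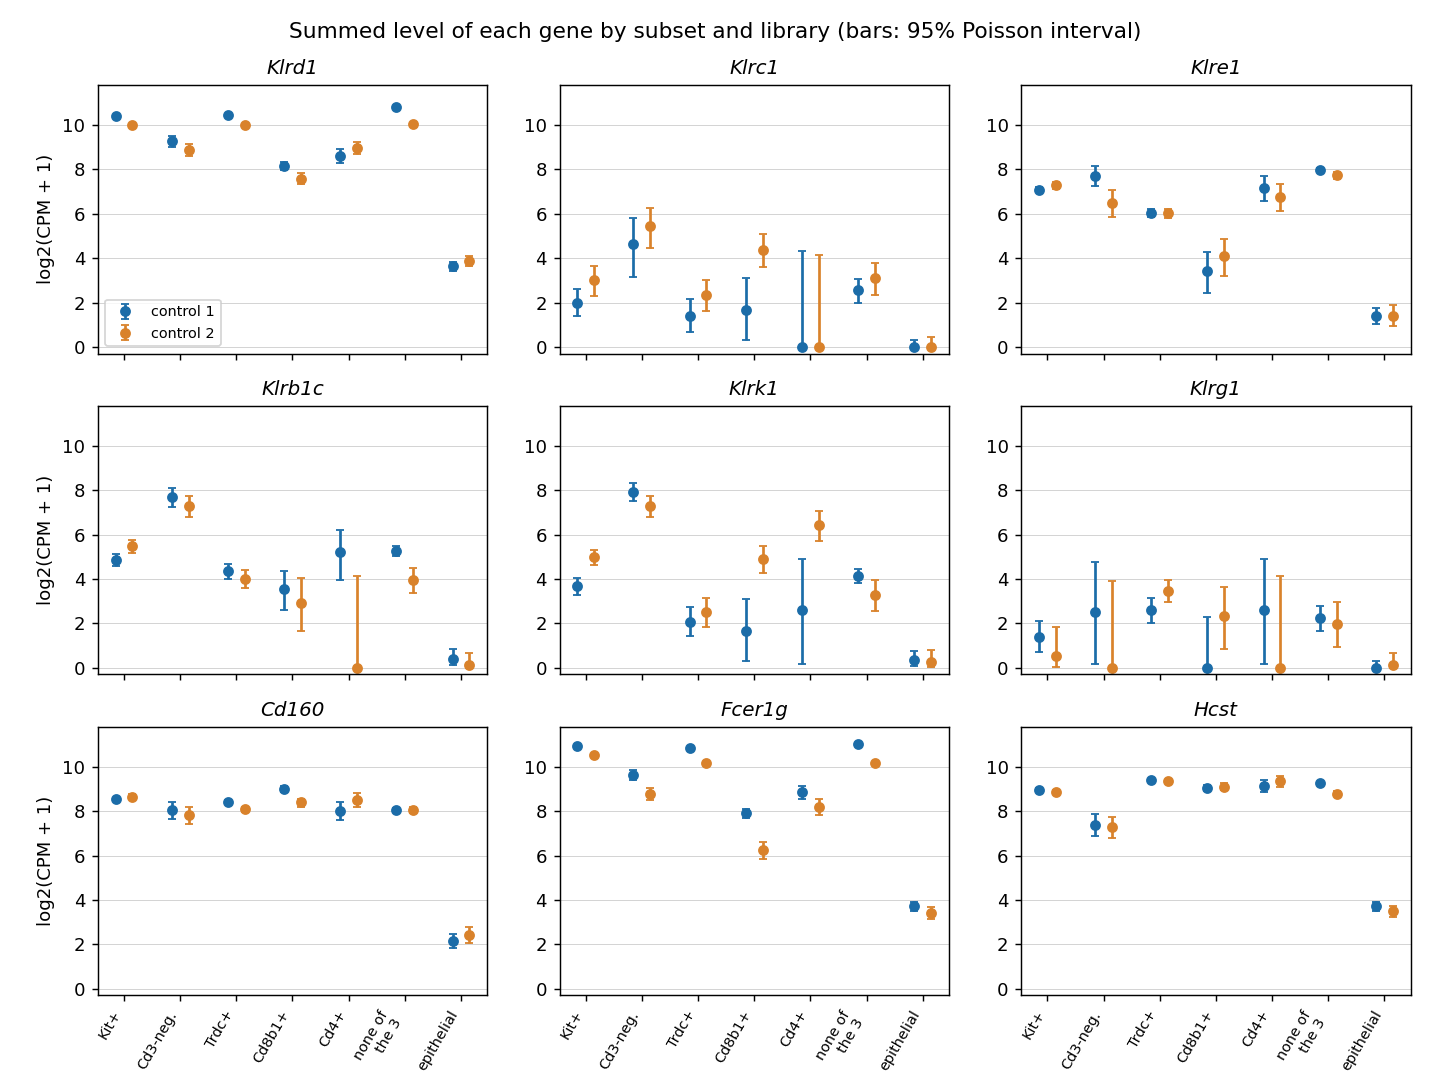
Level of each member, as log2(CPM + 1) of the UMIs summed per subset, in control 1 (blue) and control 2 (orange). Bars are 95% Poisson intervals, which cover counting error only. Klrd1 and Fcer1g share a profile with a low point in Cd8b1+ barcodes, Cd160 and Hcst are nearly level over the T cell subsets, and Klrb1c and Klrk1 peak in Cd3-negative barcodes.

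Klrd1, the CD94 gene, was among the most abundant members. Its level was 1337 and 1010 CPM in Kit+ barcodes of control 1 and control 2, 610 and 470 CPM in Cd3-negative barcodes, 1396 and 1019 CPM in Trdc+ barcodes, 281 and 191 CPM in Cd8b1+ barcodes, 390 and 504 CPM in Cd4+ barcodes and 1775 and 1038 CPM in barcodes with none of the 3 genes. The epithelial background was 11.4 and 13.7 CPM. Kit+, Trdc+ and none-of-the-3 barcodes thus formed a high group in both libraries, and Cd8b1+ barcodes were lowest in both. Within the high group the order was none of the 3, Trdc+ and Kit+ in both libraries. Their ranges over the 2 libraries overlap, and no test was made between these 3 subsets. After thinning, Klrd1 was found in 78.2% and 67.4% of Kit+ barcodes, 77.8% (95% exact interval 74.3% to 81.0%) and 66.5% (62.0% to 70.7%) of Trdc+ barcodes, 22.9% (16.6% to 30.3%) and 21.6% (14.7% to 29.8%) of Cd8b1+ barcodes, and 2.53% and 3.05% of epithelial barcodes. In Cd4+ barcodes the 76 and 113 Klrd1 UMIs sat in 19.0% and 31.0% of 42 barcodes each, and 1 barcode held 27 and 32 of them.

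Klrc1, the NKG2A gene, was scarce in the same cells. It was at 2.99 and 7.03 CPM in Kit+ barcodes, 23.8 and 42.4 CPM in Cd3-negative barcodes, 1.61 and 4.00 CPM in Trdc+ barcodes, 2.12 and 19.9 CPM in Cd8b1+ barcodes and 4.84 and 7.51 CPM in barcodes with none of the 3. No Klrc1 UMI was found in the 42 Cd4+ barcodes of either library, which, at 3 counts, allows a share of barcodes with a UMI of up to 7.14%, not of barcodes expressing the gene. Klrc2, the NKG2C gene, was at 90.5 and 100 CPM in Cd3-negative barcodes and at most 10.8 CPM elsewhere. Klrd1 RNA was thus abundant, and that of both NKG2 partners scarce, in the Trdc+ barcodes and in those with none of the 3.

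Klre1 codes for a lectin-like receptor chain that, in rats and mice, pairs with the products of Klri1 or Klri2. It was highest in barcodes with none of the 3 genes, at 248 and 212 CPM. Kit+ barcodes had 135 and 155 CPM, Cd4+ barcodes 144 and 107 CPM and Cd3-negative barcodes 210 and 88.6 CPM, and these ranges overlap. Trdc+ barcodes had 65.4 and 64.0 CPM and Cd8b1+ barcodes 9.54 and 15.9 CPM, the lowest in both libraries. The Kit+ subset could be divided by Trdc as well. Its Trdc-positive barcodes had 80.4 and 92.7 CPM of Klre1, against 248 and 290 CPM in its Cd3-positive barcodes without Trdc. Klrd1 differed less across that division, at 1319 and 981 CPM in the Trdc-positive barcodes, against 1390 and 1113 CPM in the barcodes without Trdc.

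Klrb1c, the NK1.1 gene, was at 28.0 and 43.6 CPM in Kit+ barcodes, 205 and 154 CPM in Cd3-negative barcodes, 19.3 and 15.0 CPM in Trdc+ barcodes, 10.6 and 6.63 CPM in Cd8b1+ barcodes, 35.9 and 0 CPM in Cd4+ barcodes and 37.3 and 14.4 CPM in barcodes with none of the 3. Klrk1, the NKG2D gene, was also highest in that subset, with 243 and 154 CPM in Cd3-negative barcodes, against 3.22 and 4.67 CPM in Trdc+ barcodes and 11.7 and 30.4 CPM in Kit+ barcodes. Cd8b1+ barcodes had 2.12 and 29.2 CPM of Klrk1, which differ over 10 times between the libraries. The 84.7 CPM of Klrk1 in Cd4+ barcodes of control 2 were 19 UMIs, of which 18 came from 1 barcode, and control 1 had 5.13 CPM there. Klrg1, which codes for an inhibitory receptor of cadherins, did not exceed 10.0 CPM in any subset, its value in Trdc+ barcodes of control 2, and it did not pass the filter on low counts.

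Cd160, the gene of a surface receptor for the TNF receptor family member HVEM, was spread most evenly. Cd8b1+ barcodes had 513 and 334 CPM, Kit+ barcodes 368 and 402 CPM, Trdc+ barcodes 344 and 269 CPM, Cd4+ barcodes 257 and 361 CPM, Cd3-negative barcodes 262 and 223 CPM and those with none of the 3 had 262 and 261 CPM. The range of Cd8b1+ barcodes overlaps those of Kit+, Trdc+ and Cd4+ barcodes, and in control 2 Kit+ and Cd4+ barcodes had more Cd160 than Cd8b1+ barcodes.

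The adaptor genes went separate ways. Fcer1g was at 1955 and 1489 CPM in Kit+ barcodes, 801 and 435 CPM in Cd3-negative barcodes, 1812 and 1148 CPM in Trdc+ barcodes, 238 and 74.3 CPM in Cd8b1+ barcodes, 457 and 294 CPM in Cd4+ barcodes and 2095 and 1151 CPM in barcodes with none of the 3, against 12.1 and 9.67 CPM in epithelial barcodes. It was lower in control 2 than in control 1 in 6 of 6 subsets. Hcst was at 499 and 466 CPM in Kit+ barcodes, 667 and 645 CPM in Trdc+ barcodes, 522 and 551 CPM in Cd8b1+ barcodes, 564 and 651 CPM in Cd4+ barcodes and 607 and 439 CPM in barcodes with none of the 3. Cd3-negative barcodes had 167 and 154 CPM of Hcst, below every other subset in both libraries. Within them, barcodes with an Ncr1 UMI had 450 and 498 CPM of Hcst, against 105 and 71.6 CPM in those without.

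**Figure D2:**
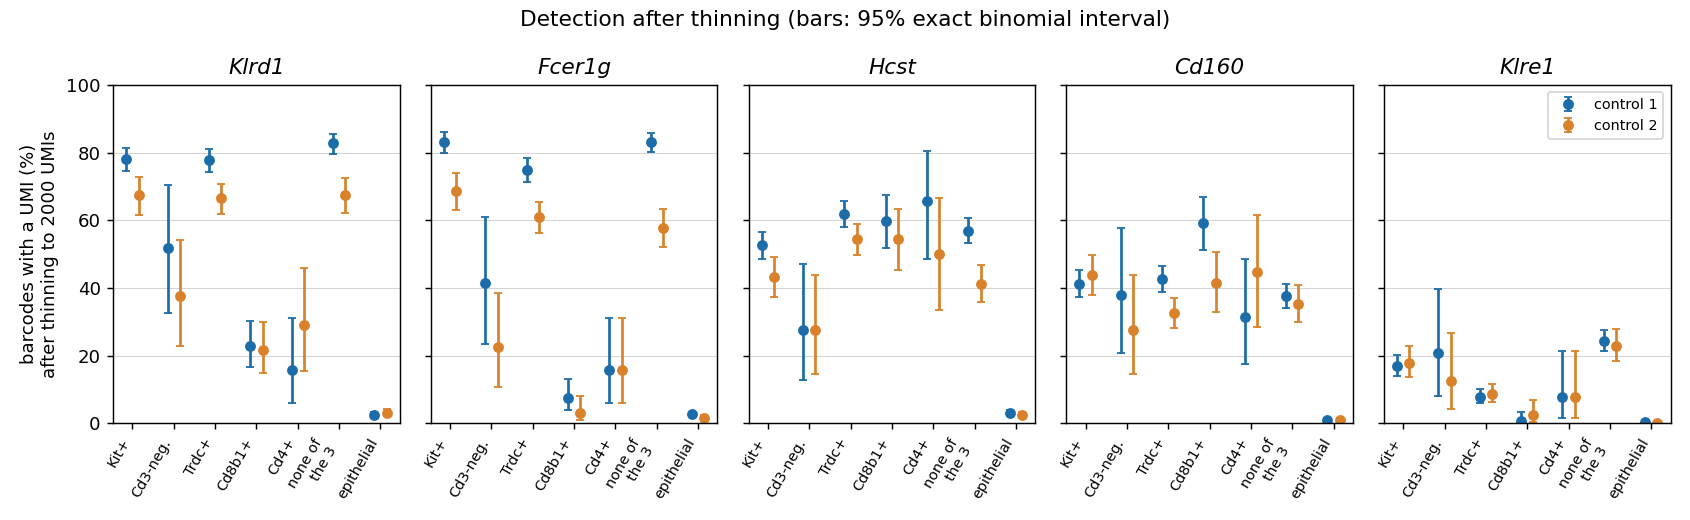
Share of barcodes with a UMI of 5 members after thinning to 2000 UMIs, by subset, in control 1 (blue) and control 2 (orange). Bars are 95% exact binomial intervals. Klrd1 and Fcer1g are found in over 57% of Kit+, Trdc+ and none-of-the-3 barcodes and in under 31% of Cd8b1+ and Cd4+ barcodes, while Hcst and Cd160 show no such division.

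The first comparison set Trdc+ against Cd8b1+ barcodes, gamma-delta T cells against T cells with the CD8 alpha-beta coreceptor as far as these genes mark them. Of 8 members that passed the filter on low counts, 3 were higher in Trdc+ barcodes and 0 lower, where 5.45% of all 10789 genes tested were called in either direction, 3.19% higher and 2.26% lower. At an unadjusted p under 0.05, 3 members were lower, and DESeq2 called 0 lower. The median log2 fold change was 0.64 over the 8 members and 0.01 over all genes tested. Fcer1g was higher by a log2 fold change of 3.31 ± 0.23 (standard error, SE), with an adjusted p of 1.67e-09 by edgeR's quasi-likelihood test with Benjamini-Hochberg adjustment over all genes tested, as throughout. Klrd1 was higher by 2.36 ± 0.20 (adjusted p = 6.99e-08) and Klre1 by 2.39 ± 0.33 (adjusted p = 3.87e-05). Hcst (0.29 ± 0.16), Cd160 (-0.46 ± 0.17), Klrb1c (0.98 ± 0.58), Klrk1 (-1.84 ± 0.82) and Klrc1 (-1.82 ± 0.65) did not pass, and Klrc1 was lower in both libraries. Each of the 3 calls went the same way in both libraries. The difference for Fcer1g was larger in control 2 alone, at 3.93 as a log2 ratio of CPM + 1, than in control 1 alone, at 2.92.

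Genes of the wider NK receptor system were counted from lists. Of 25 other NK receptor genes tested, 6 were higher and 2 lower in Trdc+ than in Cd8b1+ barcodes. Over all genes tested, 3.19% were higher and 2.26% lower. Klrb1a, an NKR-P1 family member, was at 102 and 62.7 CPM in Trdc+ barcodes, against 12.7 and 7.96 CPM in Cd8b1+ barcodes (log2 fold change 2.98 ± 0.31, adjusted p = 8.89e-07). Klri1, the Klre1 partner, was higher by 2.96 ± 0.68 (adjusted p = 0.00895). Klra3, of the Ly49 family, had 23.9 and 11.3 CPM in Trdc+ barcodes and 0 UMIs in Cd8b1+ barcodes of both libraries (adjusted p = 0.0256). Of 22 adaptor and signalling genes, 8 were higher and 2 lower. Tyrobp, which codes for DAP12, was at 1035 and 563 CPM in Trdc+ barcodes, against 201 and 65.0 CPM in Cd8b1+ barcodes (2.64 ± 0.23, adjusted p = 6.99e-08). Sh2d1b1, which codes for the SAP-related adaptor EAT-2, was higher by 4.10 ± 0.39 (adjusted p = 2.67e-07) and Sh2d1a, which codes for SAP itself, lower by -2.83 ± 0.32 (adjusted p = 3.20e-06). The myeloid list, whose cells also use Fcer1g and Tyrobp, was at 74.4 to 126 CPM in Trdc+ barcodes with 16 of 16 genes detected, against 49.1 to 203 CPM in Cd8b1+ barcodes with 10 of 16 detected, and its part in these results was not tested.

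Trdc+ barcodes were next set against the 42 and 42 Cd4+ barcodes, helper T cells as far as Cd4 marks them. Of the 8 members tested, 2 were higher and 1 lower, against 2.84% of all genes called, 1.30% higher and 1.54% lower. Fcer1g was higher by 2.07 ± 0.23 (adjusted p = 7.70e-06) and Klrd1 by 1.47 ± 0.22 (adjusted p = 0.000244), in both libraries. Klrk1 was lower by -3.46 ± 0.93 (adjusted p = 0.0459), but this call rests on the 1 barcode of control 2 with 18 UMIs: control 1 alone gave -0.54, and DESeq2 gave an adjusted p of 0.243. Klre1, at 65.4 and 64.0 CPM in Trdc+ barcodes and 144 and 107 CPM in Cd4+ barcodes, did not pass (-0.86 ± 0.29, adjusted p = 0.145). Of the other NK receptor genes, 1 was higher (Cd244a, a SLAM family receptor, 1.40 ± 0.19, adjusted p = 8.81e-05) and 1 lower (Cd226, an activating receptor of nectin-like proteins, -1.06 ± 0.26, adjusted p = 0.0235). Of the adaptor genes, 4 were higher and 2 lower, with Tyrobp higher by 3.19 ± 0.30 (adjusted p = 5.66e-07), Sh2d1a lower by -3.32 ± 0.43 (adjusted p = 5.55e-05) and the kinase gene Lyn higher by 1.89 ± 0.37 (adjusted p = 0.00445). No member was called in this comparison when library was not a block, or when all Ptprc-positive barcodes entered without the lymphocyte gate.

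Cd8b1+ against Cd4+ barcodes gave few calls of any kind, at 0.278% of the genes tested, 0.0278% higher and 0.250% lower. Of the 8 members, edgeR called 0 higher and 2 lower in Cd8b1+ barcodes, with 2 higher at an unadjusted p under 0.05 and 0 called higher by DESeq2. Klre1 was lower by -3.25 ± 0.42 (adjusted p = 0.000398), but 1 barcode of each library held 15 of the 28 and 13 of the 24 Klre1 UMIs of the Cd4+ barcodes. Fcer1g was lower by -1.25 ± 0.26 (adjusted p = 0.0358). The Fcer1g call was lost under 5 of 12 alternative settings, and the log2 ratio was -0.93 in control 1 alone and -1.97 in control 2 alone. Klrd1 pointed the same way in both libraries without passing (-0.90 ± 0.23, adjusted p = 0.158). Klra5, a Ly49 gene, was the 1 other NK receptor gene called (-2.25 ± 0.38, adjusted p = 0.00830), at 11.7 and 29.2 CPM in Cd8b1+ barcodes and 123 and 75.8 CPM in Cd4+ barcodes, and 0 of 22 adaptor genes were called by edgeR, with 3 at an unadjusted p under 0.05 and 1 called by DESeq2. Cd8a had a UMI in 10 and 21 of the 42 Cd4+ barcodes of control 1 and control 2.

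**Figure D3:**
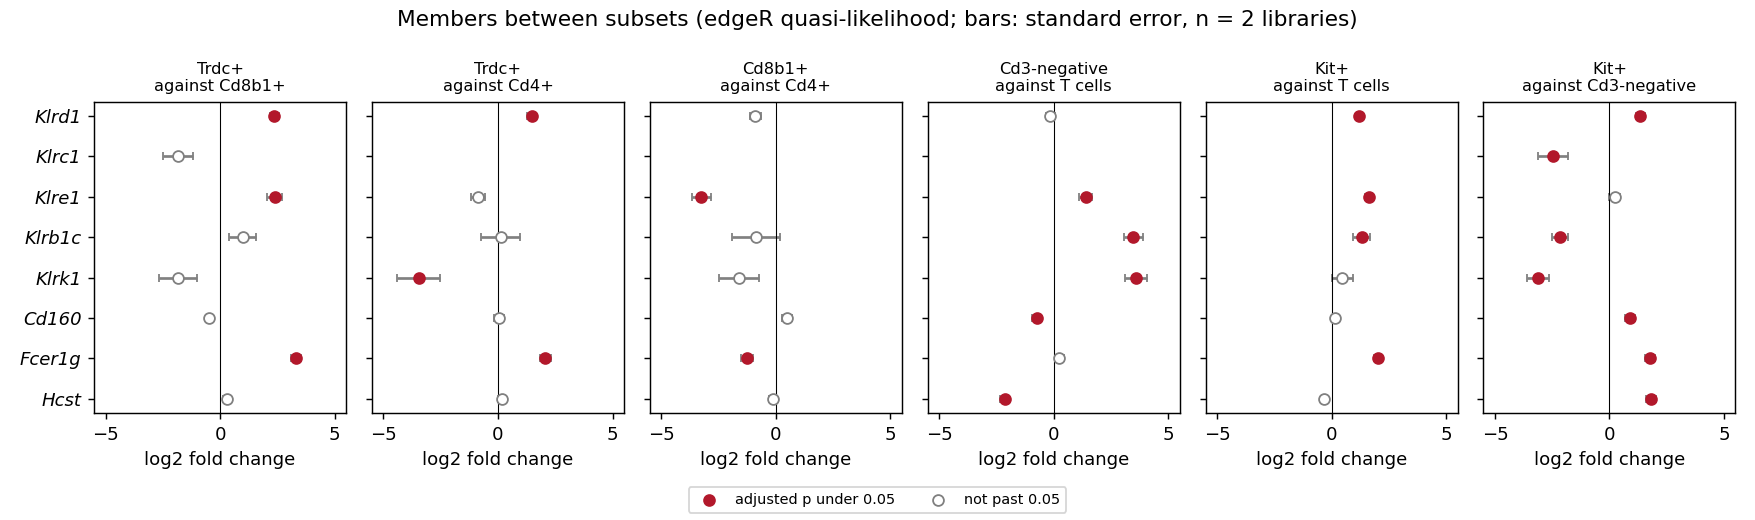
Log2 fold change and standard error of the 8 members tested in each of the 6 comparisons, with members past an adjusted p of 0.05 in red. Klrc1 has no point where Cd4+ barcodes, which have 0 Klrc1 UMIs, enter the comparison. Klrd1 and Fcer1g are higher in Trdc+ than in Cd8b1+ and in Cd4+ barcodes, and Klrb1c and Klrk1 are higher in Cd3-negative barcodes than in T cells.

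Cd3-negative barcodes were compared with T cells, taken as the mean over Trdc+, Cd8b1+ and Cd4+ barcodes. This mean leaves out the Cd3-positive barcodes with none of the 3 genes. It weighs the 3 subsets equally on the log scale, whatever their numbers of barcodes. Of the 8 members, 4 were higher and 2 lower, against 19.5% of all genes called, of which 8.89% were higher and 10.7% lower. Klrk1 was higher by 3.59 ± 0.49 (adjusted p = 1.63e-05) and Klrb1c by 3.47 ± 0.42 (adjusted p = 2.85e-06). Klre1 was higher by 1.39 ± 0.28 (adjusted p = 0.00124), but its 210 and 88.6 CPM in Cd3-negative barcodes lay below the 248 and 212 CPM of barcodes with none of the 3 genes in both libraries. Klrc1 was also called higher (adjusted p = 0.00314), with no fold given, since its UMIs in Cd4+ barcodes were 0 in both libraries. Hcst was lower by -2.14 ± 0.20 (adjusted p = 8.42e-08) and Cd160 by -0.75 ± 0.20 (adjusted p = 0.0117). Klrd1 (-0.15 ± 0.19) and Fcer1g (0.23 ± 0.19) did not pass. Their T cell mean is over unlike subsets. Mean Klrd1 was 540 CPM in Cd3-negative barcodes, against 1208 CPM in Trdc+, 236 CPM in Cd8b1+ and 447 CPM in Cd4+ barcodes. Mean Fcer1g was 618 CPM, against 1480, 156 and 375 CPM in that order. That these 2 did not pass is thus not read as likeness to T cells. The sizes differed between libraries: Klrk1 gave a log2 ratio of 5.82 in control 1 alone and 2.66 in control 2 alone, Klre1 2.18 and 0.87, and Klrb1c 3.32 and 4.97. In control 2 these ratios include Cd4+ barcodes with 0 Klrb1c UMIs and with 19 Klrk1 UMIs, most of them from 1 barcode. Scaling by total UMIs moved the median of all genes to 0.29, against 0.05 in the TMM scaling used.

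The higher members of this subset were concentrated in few barcodes. After these values had been seen, Cd3-negative barcodes were divided by Ncr1. The 11 and 9 barcodes with an Ncr1 UMI, of 113 and 140, held 95.3% and 97.5% of the subset's Klrb1c UMIs, 96.1% and 95% of its Klrk1 UMIs, 81.8% and 78.3% of its Klre1 UMIs and 100% and 100% of its Klrc1 UMIs. Klrk1 was at 1296 and 757 CPM in the Ncr1-positive barcodes, against 11.6 and 9.55 CPM in the Ncr1-negative ones. Klrb1c was at 1085 and 777 CPM in the Ncr1-positive barcodes, against 11.6 and 4.78 CPM in the Ncr1-negative ones. These barcodes were deeper, with a median of 2897 and 5272 UMIs, against 1262 and 1460 UMIs without Ncr1, and depth raises the chance of an Ncr1 UMI. Klrd1 was less concentrated, at 1481 and 1354 CPM against 419 and 258 CPM, with 43.8% and 55.7% of its UMIs in the Ncr1-positive barcodes. Both adaptors were higher in the Ncr1-positive barcodes as well. Hcst was at 450 and 498 CPM, against 105 and 71.6 CPM, and Fcer1g at 1746 and 1912 CPM, against 593 and 81.2 CPM. In control 1 the Ncr1-positive barcodes held 0 Trac, Trbc2 and Trdc UMIs, and in control 2 they held 2, 13 and 4. Without them, 3 of the members tested were called between Cd3-negative barcodes and T cells, against 21.4% of all genes tested. Hcst was then lower by -3.07 (adjusted p = 5.52e-08), Cd160 by -1.12 (adjusted p = 0.00147) and Klrd1 by -0.89 (adjusted p = 0.00887). Klrb1c (-1.05 ± 1.16, adjusted p = 0.584), Klrk1 (-0.71 ± 1.18, adjusted p = 0.730) and Klre1 (-0.72 ± 0.41, adjusted p = 0.227) no longer passed. Ncr1-negative barcodes held only 2 and 1 Klrb1c, 2 and 2 Klrk1 and 8 and 5 Klre1 UMIs. The changed signs of these genes are therefore not read as a direction.

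**Figure D4:**
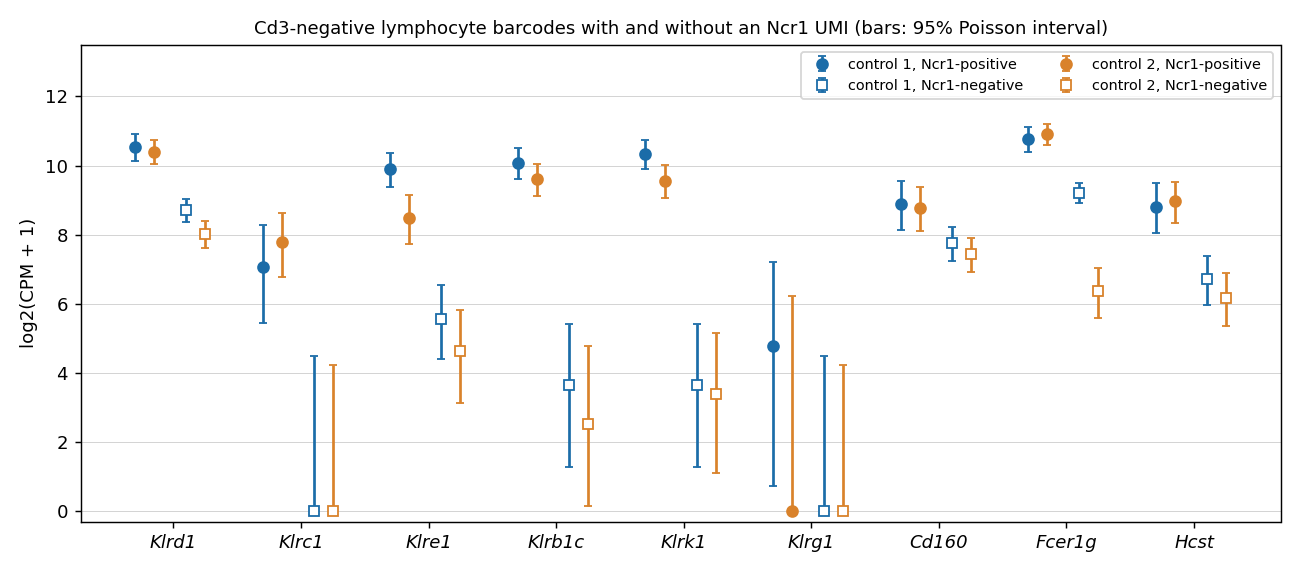
Level of the 9 members as log2(CPM + 1) in Cd3-negative barcodes with an Ncr1 UMI (filled circles) and without one (open squares), in control 1 (blue) and control 2 (orange). Bars are 95% Poisson intervals for counting error only. Klrb1c, Klrk1 and Klrc1 lie in the Ncr1-positive barcodes, while Klrd1 and Cd160 are present on both sides.

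Receptor and adaptor lists were counted in the same comparison. Of 25 other NK receptor genes, edgeR called 11 higher and 0 lower in Cd3-negative barcodes than in T cells, with 0 lower at an unadjusted p under 0.05 and 0 by DESeq2. Over all genes tested, 8.89% were higher and 10.7% lower. Ncr1 itself was at 157 and 166 CPM in Cd3-negative barcodes and at most 10.6 CPM in Trdc+, Cd8b1+ and Cd4+ barcodes (adjusted p = 3.67e-06). Klra4 and Klra9, of the Ly49 family, were called as well (adjusted p = 5.75e-05 and 4.46e-05), with all of their Cd3-negative UMIs in Ncr1-positive barcodes. Their means in T cells were only 1.38 and 0.591 CPM, against 85.4 and 44.1 CPM in Cd3-negative barcodes. Genes so low in T cells could hardly have been called lower, which limits the count of 0 lower. Of 22 adaptor genes, 9 were higher and 2 lower. The kinase gene Syk was at 71.5 and 27.0 CPM in Cd3-negative barcodes, against 7.78 and 3.33 CPM in Trdc+, 5.30 and 2.65 CPM in Cd8b1+ and 0 CPM in Cd4+ barcodes (adjusted p = 0.000127). Tyrobp was higher by 1.57 ± 0.20 (adjusted p = 7.74e-06), and Lat, the scaffold of T cell receptor signalling, was lower by -2.14 ± 0.23 (adjusted p = 6.26e-07). The mast cell list was at 15.4 to 42.9 CPM in Cd3-negative barcodes with 5 of 7 genes detected, against 5.34 to 6.17 CPM in Trdc+ barcodes with 3 of 7 detected, and the myeloid list was at 88.6 to 110 CPM with 7 of 16 detected. Their part in these results was not tested.

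Kit+ barcodes were compared with the same T cell mean. Of the 8 members, 4 were higher and 0 lower, against 7.15% of all genes called, 4.80% higher and 2.34% lower. By edgeR at an unadjusted p under 0.05 1 was lower, and DESeq2 called 0 lower. Fcer1g was higher by 2.01 ± 0.15 (adjusted p = 1.55e-08), Klre1 by 1.62 ± 0.17 (adjusted p = 1.14e-06) and Klrd1 by 1.20 ± 0.15 (adjusted p = 8.98e-06). Against the Cd3-positive barcodes with none of the 3 genes, which this mean leaves out, Kit+ barcodes were lower in both libraries for Klre1, at 135 and 155 CPM against 248 and 212 CPM, and for Klrd1, at 1337 and 1010 CPM against 1775 and 1038 CPM, with no test made. Klrb1c was higher by 1.32 ± 0.36 (adjusted p = 0.0265), at 0.50 in control 1 alone and 3.17 in control 2 alone, where Cd4+ barcodes had 0 Klrb1c UMIs. This call was lost under 3 of 12 alternative settings, with adjusted p up to 0.280. Hcst (-0.33 ± 0.13), Cd160 (0.15 ± 0.14) and Klrk1 (0.47 ± 0.45) did not pass, nor did Klrc1 (adjusted p = 0.535). Since most Kit+ barcodes are Trdc-positive, this comparison partly repeats that of Trdc+ with Cd8b1+ and Cd4+ barcodes. The means of Klrd1 in Kit+ and Trdc+ barcodes, 1174 and 1208 CPM, were closer together than the libraries were. Of the other NK receptor genes, 11 of 25 were higher and 3 lower in Kit+ barcodes, among them Lair1, a collagen receptor gene (-2.65 ± 0.57, adjusted p = 0.00394). Klri2, a Klre1 partner (5.98 and 15.0 CPM in Kit+ barcodes, adjusted p = 0.00891), and Klra3 (29.7 and 15.5 CPM, adjusted p = 0.0109) were called higher too, with no fold given, since both had 0 UMIs in Cd4+ barcodes. Of the adaptor genes, 8 of 22 were higher and 3 lower. Tyrobp (2.28 ± 0.17, adjusted p = 1.07e-08) and Sh2d1b1 (2.08 ± 0.22, adjusted p = 7.81e-07) were higher and Sh2d1a (-1.94 ± 0.28, adjusted p = 6.64e-05) was lower.

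Between Kit+ and Cd3-negative barcodes, 4 of the 8 members were higher and 3 lower in Kit+ barcodes, against 18.0% of all genes called, 10.9% higher and 7.08% lower. Hcst was higher by 1.82 ± 0.22 (adjusted p = 3.64e-06), Fcer1g by 1.77 ± 0.22 (adjusted p = 4.98e-06), Klrd1 by 1.35 ± 0.21 (adjusted p = 8.58e-05) and Cd160 by 0.90 ± 0.22 (adjusted p = 0.00556). Klrk1 was lower by -3.11 ± 0.49 (adjusted p = 9.57e-05), Klrc1 by -2.48 ± 0.65 (adjusted p = 0.0108) and Klrb1c by -2.15 ± 0.36 (adjusted p = 0.000222). Without the Ncr1-positive barcodes those lower calls were lost, with 0 Klrc1 UMIs left in Cd3-negative barcodes. The signs changed, at 1.23 ± 1.11 for Klrk1 (adjusted p = 0.491) and 2.37 ± 0.96 for Klrb1c (adjusted p = 0.0898). These rest on 2 and 2 Klrk1 UMIs and 2 and 1 Klrb1c UMIs in Ncr1-negative barcodes, and no direction is read from them. In this setting 20.4% of all genes tested were called. The 4 higher calls held, and Klre1, which did not pass with all barcodes (0.23 ± 0.25), was called higher (2.34, adjusted p = 3.58e-05). Of the other NK receptor genes, 3 were higher and 8 lower, with Klra4 (-5.32 ± 0.88, adjusted p = 0.000207), Ncr1 (-3.85 ± 0.64, adjusted p = 0.000212) and Klra8 (-3.83 ± 1.00, adjusted p = 0.0109) the largest by size. Klra4 and Klra8 had means of only 1.49 and 2.87 CPM in Kit+ barcodes, so they could hardly have been called higher there. Of the adaptor genes, 5 were higher and 3 lower, led by Syk (-2.33 ± 0.50, adjusted p = 0.00251), Sh2d1a (-1.71 ± 0.54, adjusted p = 0.0324) and Sh2d1b1 (1.39 ± 0.34, adjusted p = 0.00634).

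Members were also counted together in single barcodes, thinned to 2000 UMIs, over the 6 subsets (1592 Klrd1-positive and 557 Klrd1-negative barcodes in control 1, 770 and 503 in control 2). These shares are a description of cells of 2 libraries, with no test. Here and in the next paragraph they pool subsets that differ in these genes, and the part of subset composition in them was not tested. Fcer1g had a UMI in 85.6% and 68.7% of Klrd1-positive barcodes, against 38.8% and 30.6% of Klrd1-negative ones. Tyrobp was found in 59.9% and 44.0% of Klrd1-positive barcodes, against 22.6% and 12.9% of Klrd1-negative ones. Klre1 was found in 19.5% and 19.5% of Klrd1-positive barcodes, against 4.13% and 4.97%. The reverse held for Cd6, a receptor of conventional T cells, with 2.39% and 4.03% against 20.6% and 20.9%. By subset and before thinning, Cd6 had a UMI in 73.8% and 70.5% of Cd8b1+ barcodes, against 7.85% and 5.84% of Trdc+ barcodes. Cd160 differed little, at 39.3% and 36.4% against 47.8% and 37.6%.

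**Figure D5:**
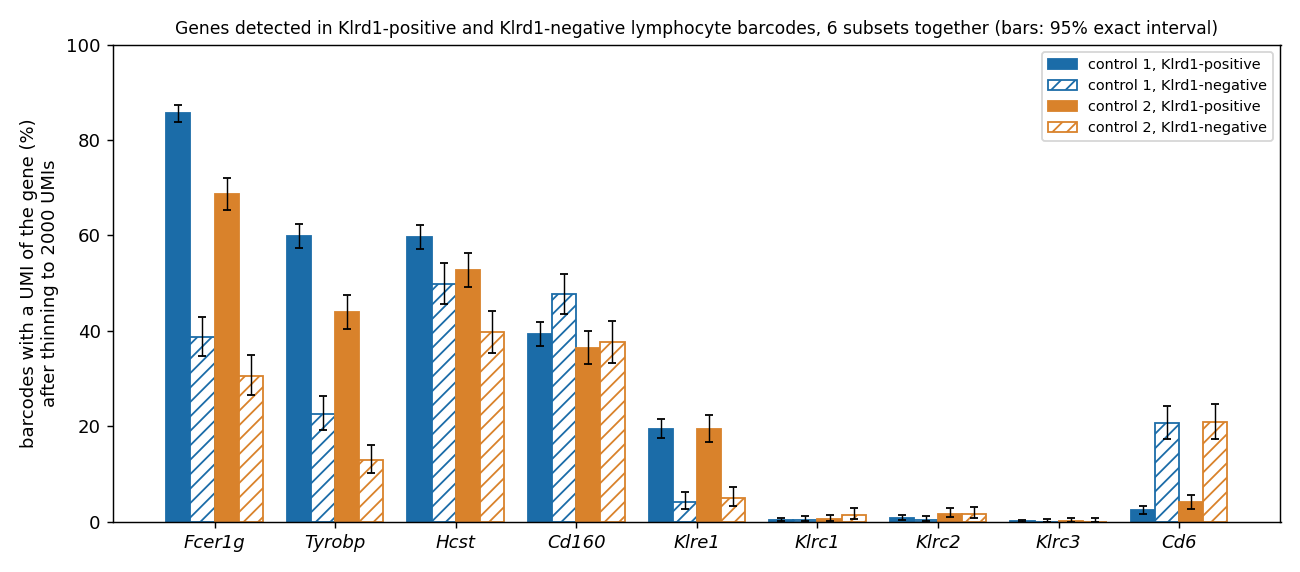
Share of Klrd1-positive (filled) and Klrd1-negative (hatched) lymphocyte barcodes with a UMI of 9 other genes, after thinning to 2000 UMIs, in control 1 (blue) and control 2 (orange), with 95% exact binomial intervals. Fcer1g, Tyrobp and Klre1 are found more often in Klrd1-positive barcodes and Cd6 less often, and Klrc1, Klrc2 and Klrc3 stay under 2% in both.

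The NKG2 partners of CD94 were rare beside it. Klrc1 had a UMI in 6 of 1592 (0.377%) and 4 of 770 (0.519%) Klrd1-positive barcodes, against 0.359% and 1.39% of Klrd1-negative ones, Klrc2 in 0.817% and 1.69%, against 0.359% and 1.59%, and Klrc3 in 0.0628% and 0.130%, against 0 of 557 and 0 of 503. At this depth a barcode without a UMI may still express the gene. Cd247, which codes for the CD3 zeta chain that Fcer1g can stand in for in T cell receptor complexes, was found in 29.4% and 35.1% of Fcer1g-positive barcodes, against 49.8% and 54.6% of Fcer1g-negative ones. Hcst was found in 15 of 33 and 13 of 26 Klrk1-positive barcodes (95% exact intervals 28.1% to 63.6% and 29.9% to 70.1%), against 57.3% and 47.6% of Klrk1-negative ones. Barcodes with an Hcst UMI but no Klrk1 UMI numbered 1213 and 593.

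Over the 12 sums of 6 subsets and 2 libraries, the member pair with the most similar levels was Klrd1 and Fcer1g, with a Pearson r of 0.97 of log2(CPM + 1), a description over sums that share libraries. Among all genes with a mean of at least 20 CPM, those most like Klrd1 were Lat2 (r = 0.97), Cfap126 (0.96) and Ppp1r3b (0.96), and those most like Fcer1g were Abcb9, Napsa and Cd200r2 (each 0.95). Those most like Klre1 were Map2 (0.94), Trf (0.92) and Plce1 (0.90). For Klrb1c they were Hif1an (0.97), Gm43813 (0.94) and Rhbdd1 (0.93), and for Klrk1 Stk24 (0.94), Kat6b (0.93) and Il10rb (0.91). Cd160 was most like Ywhah (0.87), Anp32b (0.83) and Id3 (0.83), and Hcst most like Hnrnpk (0.98), Smim11 (0.97) and Mtfr1l (0.97).

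Of the receptors outside the member list, the 3 with the highest mean level over the 12 sums were Cd96, Cd244a and Cd226, at 500, 452 and 398 CPM. Cd96, a nectin-like receptor gene, ranged over 378 to 614 CPM and Cd226, whose product shares ligands with it, over 87.1 to 809 CPM. The leading adaptor and signalling genes were Fyn, a Src family kinase gene (856 CPM), Grap2 (706 CPM) and Tyrobp (634 CPM, from 35.7 to 1327 CPM).

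Ligands were looked up in the epithelial barcodes, the cells these lymphocytes sit among. The 3 highest of the ligand list there were Clec2h, a C-type lectin-related gene whose product is bound by NKR-P1 family receptors, at 1141 and 1136 CPM, and the classical class I genes H2-K1 at 746 and 975 CPM and H2-D1 at 365 and 367 CPM. H2-T23, the gene of the CD94 ligand Qa-1, was next, at 210 and 199 CPM, against 343 and 252 CPM in Kit+ lymphocytes and 353 and 289 CPM in Trdc+ lymphocytes. The NKG2D ligand genes were near 0 in epithelial barcodes: Raet1e was at 1.13 and 0.416 CPM, Ulbp1 at 0.532 and 0.104 CPM, and H60b, H60c and Raet1d had 0 UMIs in both libraries. Between lymphocyte subsets, 10 ligand genes were tested. By edgeR 0 were called between Trdc+ and Cd8b1+ barcodes (2 at an unadjusted p under 0.05) and 0 between Cd8b1+ and Cd4+ barcodes (0 unadjusted), and DESeq2 called 0 in both. Of the 10, 1 was lower in Trdc+ than in Cd4+ barcodes (Raet1e, -1.22 ± 0.33, adjusted p = 0.0468). In Cd3-negative barcodes 5 were lower and 0 higher than in T cells, where 10.7% of all genes were lower and 8.89% higher, led by H2-T23 (-1.79 ± 0.20, adjusted p = 1.13e-06), H2-D1 (-1.22 ± 0.15, adjusted p = 6.32e-06) and H2-K1 (-1.04 ± 0.15, adjusted p = 3.61e-05). For both Cd3-negative and Kit+ barcodes against T cells, 0 ligand genes were higher at an unadjusted p under 0.05 by edgeR and 0 by DESeq2. In Kit+ barcodes 2 were lower and 0 higher than in T cells (Raet1e, -0.998 ± 0.192, adjusted p = 0.00135, and Clec2h, -0.67 ± 0.16, adjusted p = 0.0113), where 2.34% of all genes were lower and 4.80% higher. Clec2h was at 57.9 and 41.7 CPM in Kit+ barcodes, a level not shown to exceed free RNA from epithelial cells, so its call is not read as a difference in lymphocyte expression. Against Cd3-negative barcodes, 5 were higher and 2 lower in Kit+ barcodes, where 10.9% of all genes were higher and 7.08% lower, led by H2-T23 (1.69 ± 0.21, adjusted p = 6.33e-06), H2-D1 (1.20 ± 0.17, adjusted p = 4.03e-05) and Raet1e (-1.07 ± 0.35, adjusted p = 0.0351).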

How the data were processed

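Cells were released from the proximal small intestine with 20 mM EDTA for 60 min and TrypLE for 10 min, passed through a 30 µm strainer and used at 80% viability or more, per the labels' protocols. The deposited matrices hold raw UMI counts, made with Cell Ranger 7.1.0 per the file headers. The submitters' processing notes name builds GRCm38 and mm10 and, beside that version, Cell Ranger 6.1. The sources used here do not say whether intronic reads were counted.

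Barcodes with at least 500 genes, under 25% mitochondrial UMIs and at most 50% hemoglobin UMIs were kept. No doublet caller was run. Leaving out the 6% of barcodes with the most UMIs was tried instead. A subset needed at least 1 UMI of its gene. Counts were summed per subset and library. The 12 sums entered 1 fit with edgeR 4.0.16 in R 4.3.3 (quasi-likelihood test, TMM, filterByExpr, library as a block, 5 residual degrees of freedom), with Benjamini-Hochberg adjustment over 10789 genes and a threshold of 0.05. The block follows from subsets of a library coming from the same suspension. Genes that define the gate or the subsets were not tested. The standard error is the log2 fold change divided by the root of the F statistic. The procedure was tested on simulated data.

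Intervals are 95% exact (Poisson for CPM, Clopper-Pearson for shares) and cover counting error only. A count of 0 was read as allowing up to 3 counts. Levels are CPM of the sum; 3' UMI counts carry no length term. DESeq2 1.42.0 was an alternative. The members and lists were chosen with earlier results of these data known. All 9 members are named. Of each other list, the 3 genes with the highest mean level and the 3 called genes with the largest change per comparison are named, with likeness given for the 3 closest genes of each member above 20 CPM. H2-T23, the low NKG2D ligand genes, Klrc2, the genes in single barcodes and the Ncr1 division were chosen after values were seen.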

Additional observations from a re-analysis of the deposited data

Results flagged for a closer look

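Ptprc-positive barcodes of the myeloid gate (104 in control 1, 42 in control 2) entered no comparison, and 3 members stood above the epithelial background there in both libraries, with CPM intervals that did not overlap. Fcer1g, also an Fc receptor adaptor of myeloid cells, was at 1875 CPM in control 1 and 1484 CPM in control 2, against 12.1 and 9.67 CPM in epithelial barcodes. Klrd1 was at 117 CPM in control 1 and 73.8 CPM in control 2, against 11.4 and 13.7 CPM, from 90 and 24 UMIs. Hcst was at 51.8 CPM in control 1 and 49.2 CPM in control 2, against 12.04 and 10.2 CPM, from 40 and 16 UMIs. Klrk1 stood above background in control 1 alone, at 7.77 CPM from 6 UMIs, against 0.266 CPM. In barcodes thinned to 2000 UMIs the Klrd1 intervals of control 2 overlapped (from 3.51% in myeloid barcodes, up to 4.17% in epithelial barcodes). Cd3 genes had a UMI in 16.3% and 9.52% of these myeloid barcodes. The part of such barcodes in these values was not tested.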

How the results depend on the processing

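Of 25 called values of members, all 25 kept their direction and call with DESeq2 size factors, with no filter on low counts, under 10% mitochondrial UMIs and without the 6% of barcodes with the most UMIs. Scaling by total UMIs, subsets with overlap and at least 2 UMIs of the subset gene kept 24 each, and the DESeq2 Wald test kept 23. The stricter Cd3-negative rule, which left 6 and 2 barcodes, kept 18, the fit without the library block (no replicate block) 16, and that without the lymphocyte gate 12. Whether the lost calls follow from fewer barcodes or from mixed cells was not tested.

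Member calls changed by over 1.5 times in these comparisons. Without the replicate block, calls numbered 0 for Trdc+ against Cd4+, 1 for Cd8b1+ against Cd4+ and 4 for Kit+ against Cd3-negative. With no lymphocyte gate there were 0 for Trdc+ against Cd4+, 1 for Cd8b1+ against Cd4+ and 2 for Kit+ against T cells. Under the stricter Cd3-negative rule there were 1 for Cd8b1+ against Cd4+, 3 for Cd3-negative against T cells and 4 for Kit+ against Cd3-negative, and with overlapping subsets 1 for Cd8b1+ against Cd4+. Leaving out Ncr1-positive barcodes, a setting chosen after seeing the data, gave 1 for Cd8b1+ against Cd4+ and 3 for Cd3-negative against T cells.

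Over all genes, the number called moved by over 1.5 times as follows. For Trdc+ against Cd8b1+ it was 588, against 190 without the block and 266 without the gate. For Trdc+ against Cd4+ it was 306, against 95 without the block, 68 without the gate and 177 at 2 UMIs of the subset gene. For Cd8b1+ against Cd4+ it was 30, against 7, 2, 17 with overlap and 116 with no filter. For Cd3-negative against T cells it was 2109, against 1385 without the block, 6591 without the gate and 240 under the stricter rule. For Kit+ against T cells it was 771, against 293 without the block. For Kit+ against Cd3-negative it was 1941, against 835, 5225 and 263 in that order.

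Values that turned round without the lymphocyte gate were Klre1 for Cd3-negative against T cells (-1.26, adjusted p = 0.000588) and Klrb1c for Kit+ against Cd3-negative (0.24, adjusted p = 0.740). This setting adds barcodes of other classes, and Cd3-negative then held 431 and 441 barcodes. Without Ncr1-positive barcodes, those that turned round for Cd3-negative against T cells were Klrb1c (-1.05), Klre1 (-0.72), Klrk1 (-0.71) and Klrc1 (-4.25), and for Kit+ against Cd3-negative Klrb1c (2.37), Klrk1 (1.23) and Klrc1 (6.26). None of those passed the threshold on adjusted p, and they are not read as a direction. Both Klrc1 values were fitted against 0 UMIs and are no measure of size. With 1 library left out there is no test, and values of each library alone kept the direction of all 25. The 34 pairs of member and subset above background became 32 to 36 under 5 other settings. The shares themselves were less stable. Of 54 mean thinned shares, 39 moved by at least their standard deviation over the libraries when thinned to 1000 UMIs, and 44 at 4000 UMIs. Without the lymphocyte gate 18 moved so, with overlapping subsets 15 and under 10% mitochondrial UMIs 9. Depth limits Klrg1, Klrc1 and all values of the 42 Cd4+ barcodes.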
